A study of Mus musculus with 12 samples.

Results

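The antioxidant and redox defence genes described here are 42 genes, chosen by name. They encode the enzymes which remove superoxide and peroxides, and the thioredoxin and glutathione systems that supply several of these enzymes. The Nrf2 axis, which controls many of them, and a few sources of superoxide are also included. A probe was taken when its gene name in the array files equalled one of the 42 symbols and it was no control. All 42 genes were on the array, with 285 of the 165865 probes and 42 of the 19505 gene names. For every gene, 1 probe or more was well above background on the 4 arrays of some turn.

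Expression was measured on 12 single-color arrays of the mouse cochlea, with 4 arrays per turn (apex, middle turn and base), from male C57BL/6 mice 6 weeks old. The labels name 4 mice, no treatment, no transgene and no substrain. The dissected tissue held the organ of Corti together with the stria vascularis, the spiral ligament and the spiral prominence, and the study's methods also name spiral ganglion neurons, so a signal comes from all of these cells together, and fewer cells of a type and less RNA per cell cannot be told apart. Nothing in the labels says whether the same sample number in different turns marks the same mouse, and the p-values measure the spread between these arrays. Each of the 3 slides held the 4 arrays of 1 turn, and turn and slide cannot be told apart in any difference given here. No spot was saturated. Over all genes, the median SD among the 4 arrays was 0.106 log2 units for the apex, 0.126 for the middle turn and 0.115 for the base.

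Cells that respire produce superoxide as a by-product. Superoxide dismutases turn it into hydrogen peroxide, which catalase, the glutathione peroxidases and the peroxiredoxins break down. The glutathione peroxidases and the peroxiredoxins do so with electrons that come from NADPH through glutathione or thioredoxin. The transcription factor Nrf2 (Nfe2l2), held down by Keap1, switches on many of these genes. In the cochlea, the hair cells of the base are known to be lost before those of the apex in noise exposure, ageing and treatment with ototoxic drugs, and reactive oxygen is one of the agents studied in that loss.

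Each gene was measured by 1 to 17 probes of 60 bases, placed along its exons. One probe each is shown for 4 genes whose probes all differed in the same direction between apex and base, and for Sod2, whose last probe differed from the rest. Positions are those of the array files, on mouse genome build mm9 and the plus strand, and each probe lies inside the stretch that the probes of its gene span.
Ucp2, chr7:107646708-107646767: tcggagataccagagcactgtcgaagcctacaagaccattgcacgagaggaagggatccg
Txnip, chr3:96363299-96363358: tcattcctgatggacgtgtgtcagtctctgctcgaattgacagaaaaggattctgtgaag
Gsta4, chr9:78053801-78053860: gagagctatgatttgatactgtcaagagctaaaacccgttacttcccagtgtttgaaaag
Hmox1, chr8:77620797-77620856: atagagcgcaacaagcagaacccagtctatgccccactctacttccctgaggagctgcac
Sod2, chr17:13206315-13206374: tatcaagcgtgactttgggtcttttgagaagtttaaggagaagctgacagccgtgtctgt
At these probes the mean scaled signal, in the order apex, middle turn, base, was 2260, 2589 and 4139 for Ucp2, 2940, 2127 and 1755 for Txnip, 27190, 38796 and 42364 for Gsta4, 180, 229 and 249 for Hmox1, and 8054, 10110 and 10916 for Sod2. Signals are fluorescence units after each array was scaled to a common 75th percentile. They compare turns for 1 probe or 1 gene and do not rank genes.

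In the comparison of apex and base, 24 of the 42 genes (57.1%) passed the test, against a background of 39.2% of all 19505 genes. Expression of 22 genes (52.4%) was greater in the base, where 21.6% of all genes were, and expression of 2 genes (4.76%), Txnip and Gsr, was greater in the apex, where 17.6% of all genes were. The test was limma's moderated contrast over all 12 arrays, with an adjusted p under 0.05 after the Benjamini-Hochberg method over all genes. The median difference of the 42 genes, apex minus base, was -0.19 log2 units, beside -0.04 over all genes, and 37 of the 42 lay below 0. The differences were small, from -0.95 to 0.76 log2 units. No gene of the 42 differed 2-fold or more between 2 turn means with a significant F test, whereas 4.69% of all genes did. The 4 arrays of the apex and the 4 of the base did not overlap in 22 of the 42 genes, against 38.3% of all genes.

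The direction moved with brightness. Of the 42 genes, 24 belonged to the brightest 10% of all genes by mean signal. Among these 1951 bright genes, 59.1% were greater in the base and 8.15% in the apex, and 14 of the 24 redox genes (58.3%) were greater in the base and 1 in the apex. The median difference there was -0.26 log2 units for the redox genes and -0.26 for all genes of that brightness. Among the 17554 less bright genes, 17.4% were greater in the base, and 8 of the 18 redox genes (44.4%) were, with medians of -0.15 and -0.02. These 18 genes were unevenly spread over the brightness range. In the next brightest 10% of genes, 1 of 5 redox genes was greater in the base, where 44.8% of all genes were. In the sixth and seventh groups of 10%, counted from the dimmest, 3 of 4 and 2 of 4 were, where 18.2% and 23.9% of all genes were. After quantile normalization, 36.7% of the brightest 10% of genes were greater in the base and 21% in the apex. Of the 24 redox genes in that group, 10 and 6 were. Over all 42 genes, 18 were greater in the base and 6 in the apex, beside 25.6% and 15% of all genes. By cyclic loess, a method chosen after the data had been seen, the counts were 18 and 8, beside 21% and 17.4% of all genes. In the brightest group they were 10 and 7 of 24, beside 35% and 21.7% of its genes. Of the 24 calls, 18 held under both methods. The part of brightness, slide and turn in these shares was not tested.

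**Figure D1:**
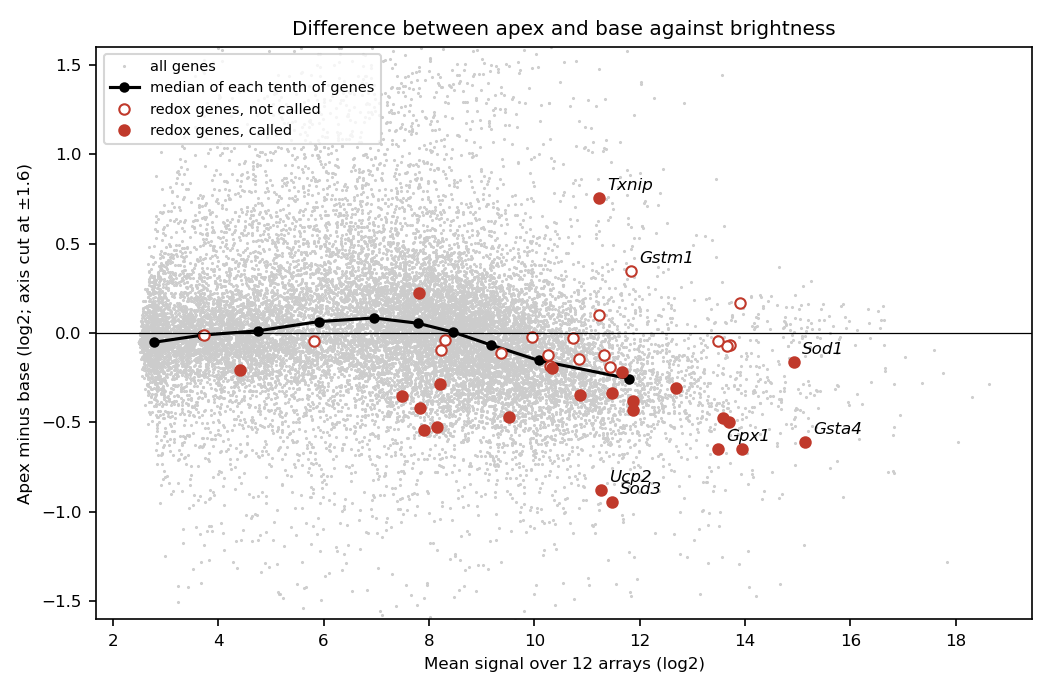
Difference between apex and base (log2, vertical axis) against the mean signal over the 12 arrays (log2, horizontal axis); grey points are all 19505 genes, the black line joins the medians of 10 equal groups of genes ordered by signal, and red circles are the 42 redox genes, filled where the adjusted p is under 0.05. The medians fall to -0.26 in the brightest group, where 24 of the red circles lie, and Txnip stands above the other red circles.

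All 3 superoxide dismutases were greater in the base than in the apex. By quantile normalization (0.09 log2 units) and by cyclic loess (0.14), however, Sod1 passed the test as greater in the apex. Sod3, the secreted enzyme of the extracellular space, had the largest difference of the 42 genes. Its signal was 1948, 1969, 2048 and 2729 from the apical arrays, 2404, 2125, 2787 and 3031 from the middle arrays and 4095, 4108, 3656 and 4825 from the basal arrays. Every basal array was above every apical and every middle array, while apex and middle overlapped. The base had 1.93-fold the expression of the apex (-0.95 log2 units, SE 0.138, adjusted p = 0.000329 by limma) and 1.62-fold that of the middle turn (adjusted p = 0.00622). A single probe measured Sod3. Sod2, the mitochondrial manganese enzyme, gave 3249, 3044, 3218 and 3259 from the apical arrays, 4097, 3942, 4012 and 3981 from the middle arrays and 3932, 4316, 4087 and 4317 from the basal arrays. The apex lay below both other turns with no overlap, and middle and base overlapped. Its expression in the base was 1.3-fold that in the apex (-0.38 log2 units, SE 0.0465, adjusted p = 0.000108), and the apex minus middle difference was -0.33 log2 units (adjusted p = 0.00272). The call against the base was lost when the median of the probes was taken. Sod1, the cytosolic copper and zinc enzyme, differed by -0.16 log2 units between apex and base (adjusted p = 0.0223). Without apex replicate 2 or 3, or base replicate 2 or 4, the Sod1 call was lost.

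Catalase, which splits hydrogen peroxide in peroxisomes, was greater in the base than in both other turns. The signal of Cat was 634, 623, 611 and 686 from the apical arrays, 672, 706, 675 and 704 from the middle arrays and 885, 881, 907 and 860 from the basal arrays. The 4 basal arrays lay within a narrow range above all others, and apex and middle overlapped. Basal expression was 1.38-fold that in the apex (-0.47 log2 units, SE 0.0477, adjusted p = 3.15e-05) and 1.28-fold that in the middle turn (adjusted p = 0.00068). It had 13 probes, all well above background and all lower in the apex.

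**Figure D2:**
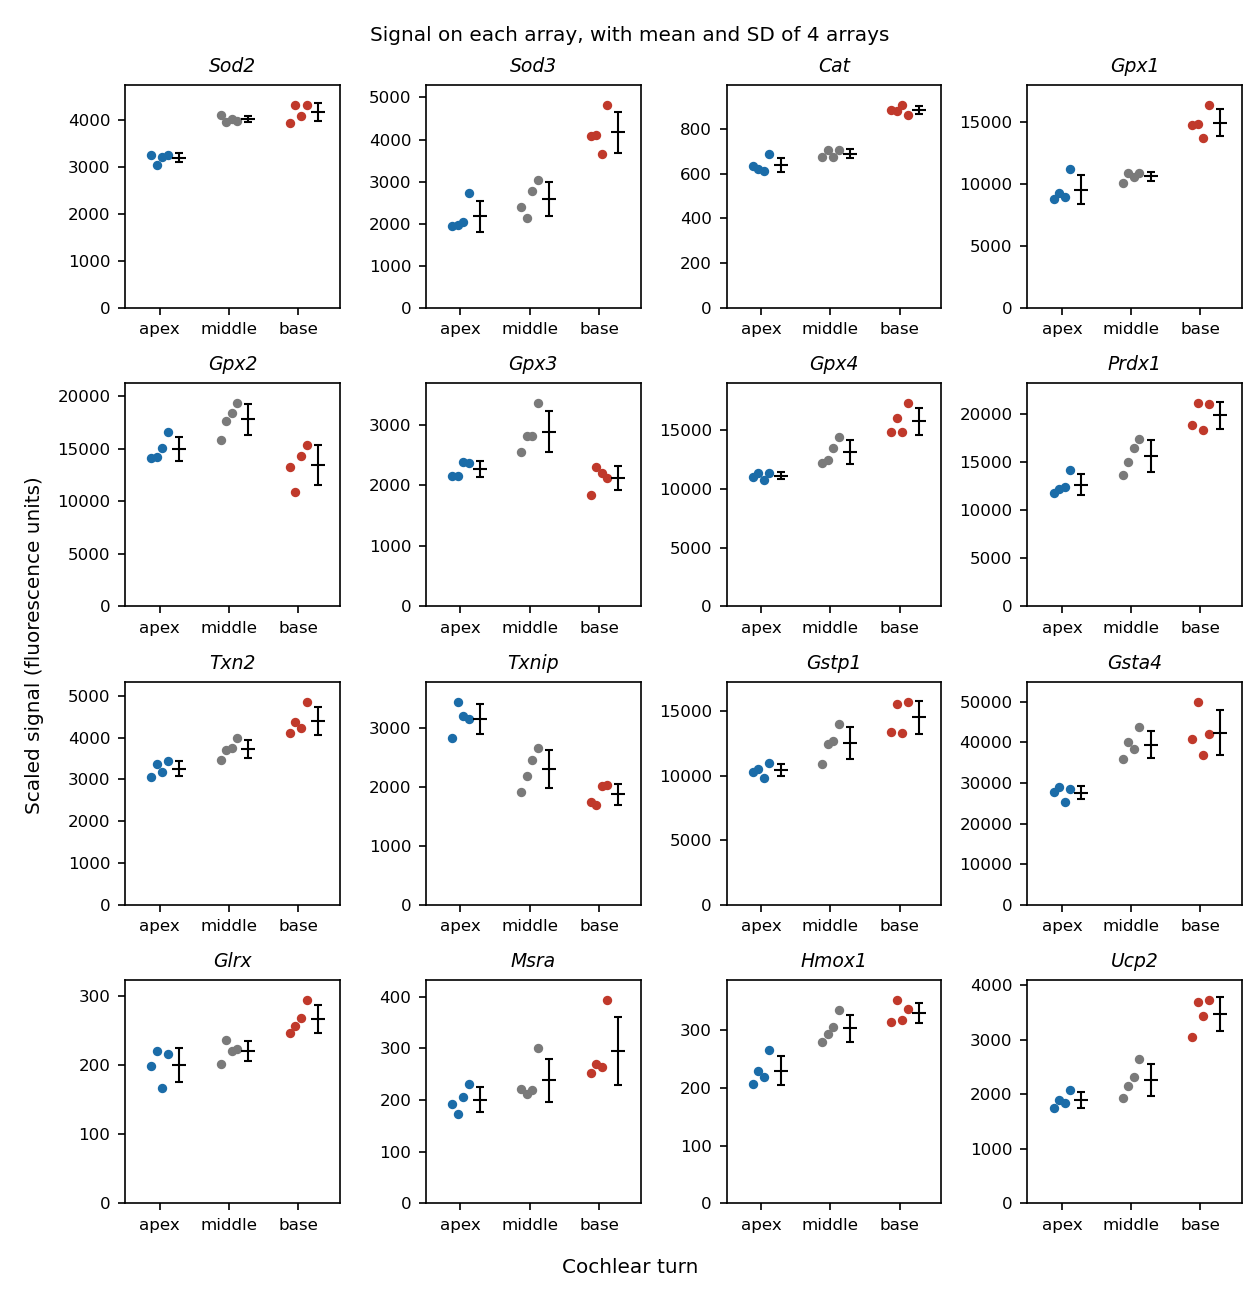
Scaled signal (fluorescence units, linear axes from 0) of the 16 genes with an adjusted p under 0.05 and a difference of 1.3-fold or more in at least 1 comparison of turns; points are single arrays, and the black bar beside them is the mean with the SD of 4 arrays. Sod3, Cat, Gpx1 and Ucp2 have basal arrays above all apical and middle arrays, Txnip falls from apex to base, and Gpx2 and Gpx3 are highest in the middle turn.

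The glutathione peroxidases reduce peroxides with glutathione. Of 6 members, 4 were greater in the base than in the apex (Gpx1, Gpx4, Gpx7 and Gpx8) and 2 did not pass the test (Gpx2 and Gpx3), though Gpx2 was greater in the apex by quantile normalization and by cyclic loess (0.38 and 0.43 log2 units) and Gpx3 by cyclic loess (0.25). Gpx1, the abundant cytosolic form, gave 8769, 9255, 8957 and 11270 from the apical arrays, 10135, 10929, 10556 and 10918 from the middle arrays and 14783, 14897, 13769 and 16424 from the basal arrays. The basal arrays stood above all others. Expression in the base was 1.57-fold that in the apex (-0.65 log2 units, SE 0.0824, adjusted p = 0.000138) and 1.41-fold that in the middle turn (adjusted p = 0.00265). Gpx4, which reduces lipid peroxides in membranes, gave 11062, 11348, 10797 and 11402 from the apical arrays, 12236, 12488, 13476 and 14470 from the middle arrays and 14906, 16075, 14899 and 17309 from the basal arrays. No pair of turns overlapped, and the order was base, middle, apex. The base had 1.41-fold the expression of the apex (-0.50 log2 units, SE 0.0671, adjusted p = 0.000196). The neighbouring turns also differed for Gpx4, with an adjusted p of 0.044 against the apex and 0.0182 against the base, both for the middle turn. The call between apex and middle was lost when any of the apical or middle replicates other than middle replicate 1 was left out, without base replicate 1 or 2, by quantile normalization, by cyclic loess, with the median of the probes and with only the arrays of these turns in the fit. That between middle and base was lost by cyclic loess, with only the arrays of these turns in the fit, and without middle replicate 1 or base replicate 2.

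Gpx2 and Gpx3 had another pattern, with the middle turn highest. Gpx3, the secreted plasma form, gave 2155, 2157, 2384 and 2373 from the apical arrays, 2555, 2806, 2814 and 3352 from the middle arrays and 1838, 2306, 2204 and 2120 from the basal arrays. The middle arrays were above all others, and apex and base overlapped. Expression in the middle turn was 1.36-fold that in the base (0.44 log2 units, SE 0.0921, adjusted p = 0.00765) and 1.27-fold that in the apex (adjusted p = 0.0376). Gpx2, a form known from epithelia, gave 14107, 14240, 15083 and 16560 from the apical arrays, 15787, 17600, 18399 and 19313 from the middle arrays and 13242, 10833, 14337 and 15362 from the basal arrays. Middle and base did not overlap, while the apex overlapped both. Expression in the middle turn was 1.33-fold that in the base (0.41 log2 units, SE 0.106, adjusted p = 0.0192). Both calls against the base were lost when the arrays were scaled to the spike-in probes, and the Gpx3 call against the apex was lost in 9 of 26 alternatives, those without apex replicate 1, 2 or 3 or middle replicate 2 or 4 among them. The differences of Gpx7 and Gpx8, which reside in the endoplasmic reticulum, were -0.29 and -0.34 log2 units between apex and base (adjusted p = 0.021 and 0.0188). The Gpx7 call was lost without apex replicate 2 or 3 or base replicate 4, and the Gpx8 call by quantile normalization, by cyclic loess and without apex replicate 1 or base replicate 4.

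Peroxiredoxins are abundant thiol peroxidases. Of the 6, Prdx1, Prdx3 and Prdx6 were greater in the base than in the apex, and Prdx2, Prdx4 and Prdx5 did not pass the test. Prdx1, a cytosolic form, gave 11758, 12205, 12435 and 14231 from the apical arrays, 13673, 15047, 16516 and 17374 from the middle arrays and 18840, 21120, 18384 and 21078 from the basal arrays. The base was above both other turns, and apex and middle overlapped in their ranges. Basal expression was 1.57-fold that in the apex (-0.65 log2 units, SE 0.0885, adjusted p = 0.000213) and 1.27-fold that in the middle turn (adjusted p = 0.0184). The call between middle and base was lost by quantile normalization and without middle replicate 1 or base replicate 2 or 4, and the one against the apex (-0.30 log2 units, adjusted p = 0.0479) was lost in 16 of 26 alternatives, each of the arrays left out in turn but apex replicate 4 and middle replicate 1 among them. Prdx3, the mitochondrial form, differed by -0.35 log2 units between apex and base (adjusted p = 0.000476) and by -0.25 between apex and middle (adjusted p = 0.0154, lost without apex replicate 2). Prdx6 differed by -0.31 log2 units between apex and base, a call lost by quantile normalization and by cyclic loess. The other 3 lay between -0.12 and -0.07 log2 units, and all 3 turned positive by quantile normalization and by cyclic loess. Prdx2 turned to 0.19 under both methods and passed the test there as greater in the apex.

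In the thioredoxin system, 1 of 5 genes was greater in the apex, 1 in the base and 3 did not pass the test. Txnip, the protein that binds and inhibits thioredoxin, moved against most of the 42 genes. Its signal was 2835, 3451, 3215 and 3159 from the apical arrays, 1918, 2196, 2455 and 2672 from the middle arrays and 1748, 1705, 2014 and 2037 from the basal arrays. The apical arrays were above all others, and middle and base overlapped. Expression in the apex was 1.69-fold that in the base (0.76 log2 units, SE 0.106, adjusted p = 0.000265) and 1.38-fold that in the middle turn (adjusted p = 0.0202). Both Txnip calls were lost with scaling to the spike-in probes, and that against the middle turn was lost also without apex replicate 2, apex replicate 3 or middle replicate 2. Txn2, the mitochondrial thioredoxin, gave 3064, 3369, 3170 and 3436 from the apical arrays, 3470, 3713, 3763 and 3997 from the middle arrays and 4120, 4380, 4223 and 4857 from the basal arrays. No pair of turns overlapped, with the base highest. Expression in the base was 1.35-fold that in the apex (-0.43 log2 units, SE 0.0667, adjusted p = 0.000487) and 1.18-fold that in the middle turn (adjusted p = 0.0295). The latter call was lost by quantile normalization, by cyclic loess, with the median of the probes, with only the arrays of these turns in the fit, and without middle replicate 1, middle replicate 2, base replicate 2 or base replicate 4. Txn1, the cytosolic thioredoxin, differed by -0.04 log2 units between apex and base by the 75th percentile and by 0.22 by quantile normalization. It passed the test as greater in the apex by quantile normalization and by cyclic loess. The reductases that recharge thioredoxin, Txnrd1 and Txnrd2, had differences of -0.02 and -0.04 log2 units, with Txnrd1 above 0 by quantile normalization and by cyclic loess.

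Glutathione is made by Gclc, Gclm and Gss and recycled by Gsr. Gsr was greater in the apex by 0.22 log2 units (adjusted p = 0.0137), but its call was lost by quantile normalization and by scaling to the median, and with spike-in scaling its difference was -0.27. Gclm, the regulatory subunit of the rate-limiting ligase, was greater in the base, with an apex minus base difference of -0.20 log2 units (adjusted p = 0.00955), a call lost by quantile normalization and by cyclic loess. Gclc, the catalytic subunit, did not pass between apex and base (-0.11 log2 units) but was lower in the apex than in the middle turn (-0.29 log2 units, adjusted p = 0.0377), a call lost in 6 of the 12 fits that left out 1 array. Gss differed by -0.09 log2 units between apex and base and did not pass the test, though it was called greater in the base by quantile normalization and by cyclic loess.

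Glutathione transferases join glutathione to reactive compounds. Gsta4, which clears products of lipid peroxidation, gave 27788, 28962, 25210 and 28544 from the apical arrays, 35806, 39948, 38241 and 43721 from the middle arrays and 40715, 49948, 36787 and 42047 from the basal arrays. The apex was below both other turns with no overlap, and middle and base overlapped. The base had 1.53-fold the expression of the apex (-0.61 log2 units, SE 0.0942, adjusted p = 0.000469), and the middle turn was 1.43-fold the apex (adjusted p = 0.00816). Gstp1 gave 10310, 10567, 9877 and 11006 from the apical arrays, 10957, 12470, 12710 and 13996 from the middle arrays and 13444, 15595, 13354 and 15750 from the basal arrays. Apex and base did not overlap, and the middle turn overlapped both. Basal expression was 1.39-fold that in the apex (-0.47 log2 units, SE 0.0835, adjusted p = 0.00106). Gstm1 was 0.35 log2 units greater in the apex and did not pass the test (adjusted p = 0.0531). It stayed uncalled in 7 of 14 alternatives and in 7 of the 12 fits that left out 1 array. In the others, quantile normalization and cyclic loess among them, it was called greater in the apex. These genes have close copies in the mouse genome, and binding of the probes to such copies was not tested.

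Of 4 genes for the repair of oxidized thiols, 3 were greater in the base. Glrx, the cytosolic glutaredoxin that removes glutathione from proteins, gave 199, 221, 167 and 216 from the apical arrays, 202, 237, 221 and 224 from the middle arrays and 247, 257, 269 and 294 from the basal arrays. The base was above both other turns, which overlapped. Expression in the base was 1.33-fold that in the apex (-0.42 log2 units, SE 0.0929, adjusted p = 0.0043). Msra, which reduces oxidized methionine, gave 193, 173, 205 and 230 from the apical arrays, 222, 211, 219 and 300 from the middle arrays and 253, 271, 263 and 393 from the basal arrays. Apex and base did not overlap, and replicate 4 was the highest array in each turn. The base had 1.46-fold the expression of the apex (-0.54 log2 units, SE 0.156, adjusted p = 0.017), a call lost without apex replicate 2. The mitochondrial Glrx2 differed by -0.22 log2 units (adjusted p = 0.00482, lost by quantile normalization and by cyclic loess), and Srxn1, which restores overoxidized peroxiredoxins, by -0.12 and did not pass the test.

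In the Nrf2 axis, 2 targets of Nrf2 passed the test. Hmox1, the inducible heme oxygenase, gave 206, 229, 218 and 264 from the apical arrays, 279, 292, 306 and 333 from the middle arrays and 314, 351, 317 and 336 from the basal arrays. The apex was below both other turns, and middle and base overlapped. Basal expression was 1.44-fold that in the apex (-0.53 log2 units, SE 0.0825, adjusted p = 0.000516), and the middle turn was 1.32-fold the apex (adjusted p = 0.013). Nqo1, a quinone reductase, was greater in the base, with an apex minus base difference of -0.35 log2 units (adjusted p = 0.00127). Nfe2l2 itself differed by -0.18 log2 units with an adjusted p of 0.0528, Keap1 by -0.03 (above 0 by quantile normalization and by cyclic loess) and the constitutive Hmox2 by -0.14, none of which passed the test. Nfe2l2 and Hmox2 were near the threshold. Both were called greater in the base with scaling to the median, with a pseudocount of 16 and with limma's options for trended and robust variances. By quantile normalization and by cyclic loess neither was called.

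Among the sources of superoxide and the mitochondrial carrier, Ucp2 had the clearest difference. Ucp2, a carrier of the inner mitochondrial membrane whose activity is linked to lower superoxide production, gave 1742, 1893, 1846 and 2088 from the apical arrays, 1939, 2161, 2324 and 2647 from the middle arrays and 3056, 3698, 3436 and 3726 from the basal arrays. All basal arrays were above all others, and apex and middle overlapped. Expression in the base was 1.84-fold that in the apex (-0.88 log2 units, SE 0.10, adjusted p = 7.15e-05) and 1.54-fold that in the middle turn (adjusted p = 0.00209). Cyba, the small subunit shared by several NADPH oxidases, and Cybb, the catalytic subunit of phagocytes, differed by -0.19 and -0.04 log2 units and did not pass the test. Nox3, the oxidase known from the inner ear, had a difference of -0.01 log2 units, an average that includes probes at background. Of its 13 probes, 3 were well above background on every array of some turn. With these alone the difference was 0.35 log2 units towards the apex and did not pass the test. Most of that value came from the first probe, which was kept only through its apical arrays, where it was brightest. The choice of probes thus favoured the apex here, and the value cannot tell whether Nox3 as a whole differed between the turns. Nox4 was greater in the base by its adjusted p of 0.0118 (-0.21 log2 units), with 4 of its 17 probes well above background. The Nox4 call was lost when the fit kept just the probes above background, with a pseudocount of 16, with normexp background correction, with limma's options for trended and robust variances, and with the median of the probes.

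**Figure D3:**
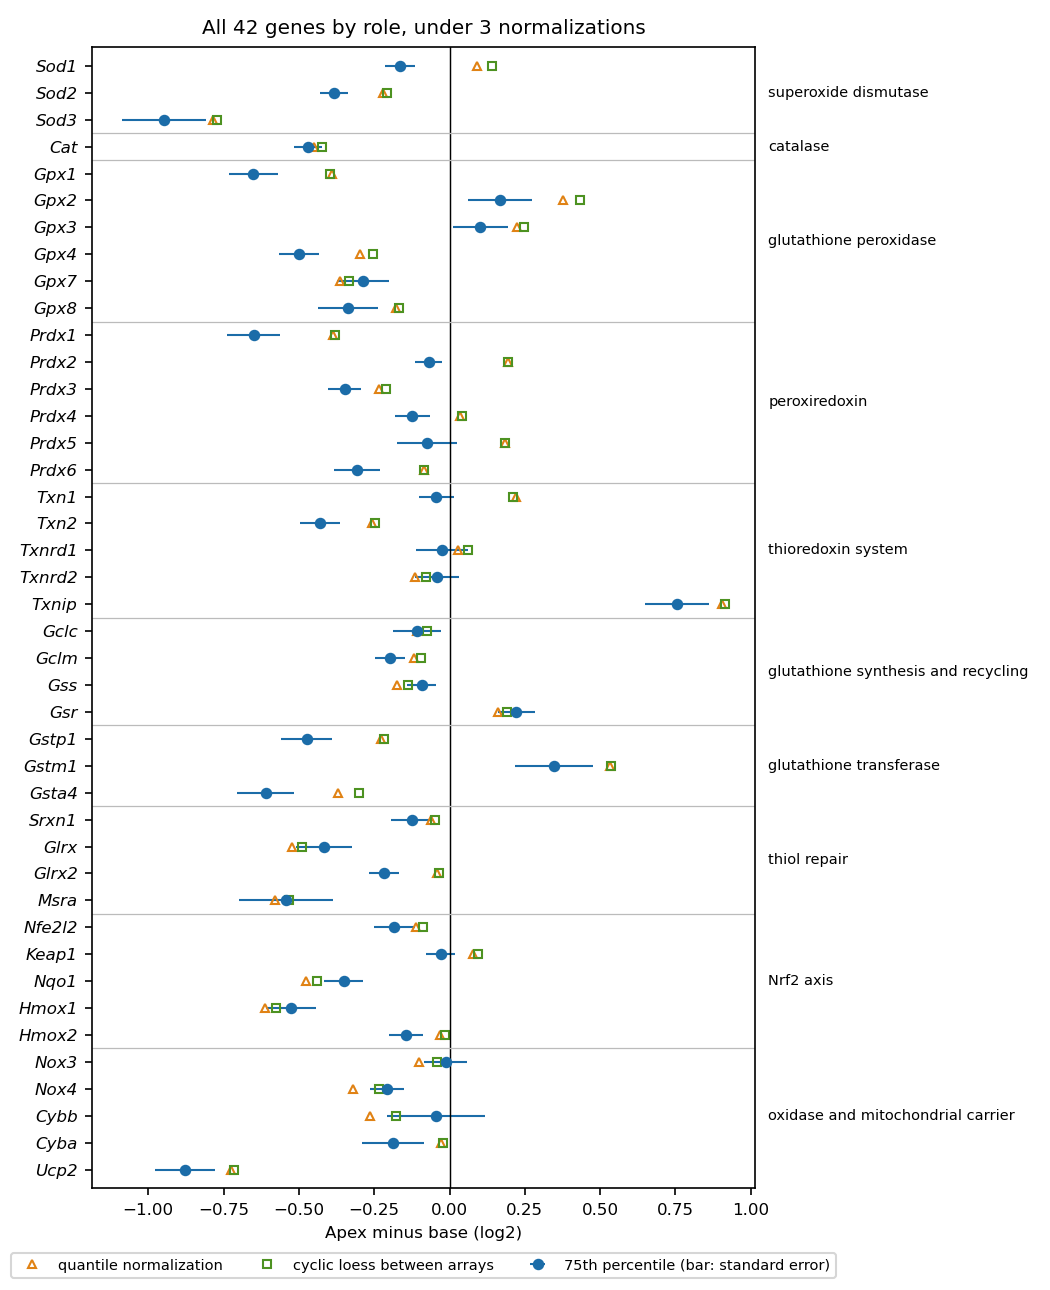
Difference between apex and base (log2, horizontal axis) of all 42 genes, grouped by role; blue points with bars are the values after scaling to the 75th percentile with their standard errors, triangles are quantile normalization and squares cyclic loess. Most points lie left of 0, Txnip lies right of 0 under all 3, and Sod1, Prdx2, Prdx4, Prdx5, Txn1, Txnrd1 and Keap1 change side.

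The middle turn stood between the ends for most genes. Its mean lay between those of apex and base in 29 of the 42 genes (69%), beside 51.3% of all genes. Between apex and middle, 9 of the 42 genes (21.4%) passed the test, against 12% of all genes. Of these, 8 were lower in the apex (Gclc, Gpx3, Gpx4, Gsta4, Hmox1, Prdx1, Prdx3 and Sod2), as 7.61% of all genes were, and Txnip was higher, as 4.42% were. This count depended on single arrays and was 3 without apex replicate 2, 4 without apex replicate 3, and 5 without apex replicate 1, middle replicate 2 or middle replicate 4, where the share of all genes also fell, to 4.95%, 7.23%, 6.7%, 7.09% and 5.73% in that order. Between middle and base, 10 of the 42 genes (23.8%) passed, against 20.9% of all genes. The base was higher for 8 (Cat, Gpx1, Gpx4, Nqo1, Prdx1, Sod3, Txn2 and Ucp2), against 9.23% of all genes, and the middle turn for Gpx2 and Gpx3, against 11.6%. The comparisons share the arrays of a turn, so their calls are not independent of each other.

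Probes of a gene share their RNA and array and are no replicates, but they show whether a difference runs along the whole gene. In each of the 16 genes with values per array above, all probes well above background had the sign of the gene's apex minus base value. Ucp2 had 6 probes with differences from -0.94 to -0.83 log2 units, and the 5 probes of Gsta4 lay between -0.63 and -0.60. The 8 probes of Txnip were all higher in the apex, by 0.93 and 0.95 log2 units at the first and second probe and by 0.54 at the last and brightest. In Sod2 the last probe, at chr17:13210861-13210920, had signals of 3513, 4196 and 3580 from apex to base and differed by -0.03, while the other 6 probes ranged from -0.52 to -0.26. In Nfe2l2 the last probe in the direction of transcription, at chr2:75513771-75513830, differed by -0.50 log2 units, while the other 5 ranged from -0.20 to 0.01. In Nox3 the first probe, at chr17:3696154-3696213, gave 67.8 in the apex, where it was well above background on 4 arrays, 42.4 in the middle turn, on 2 arrays, and 33.3 in the base, on 1 array. Its brightest probe, at chr17:3665845-3665904, gave 185, 195 and 183. Single probes were not tested.

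**Figure D4:**
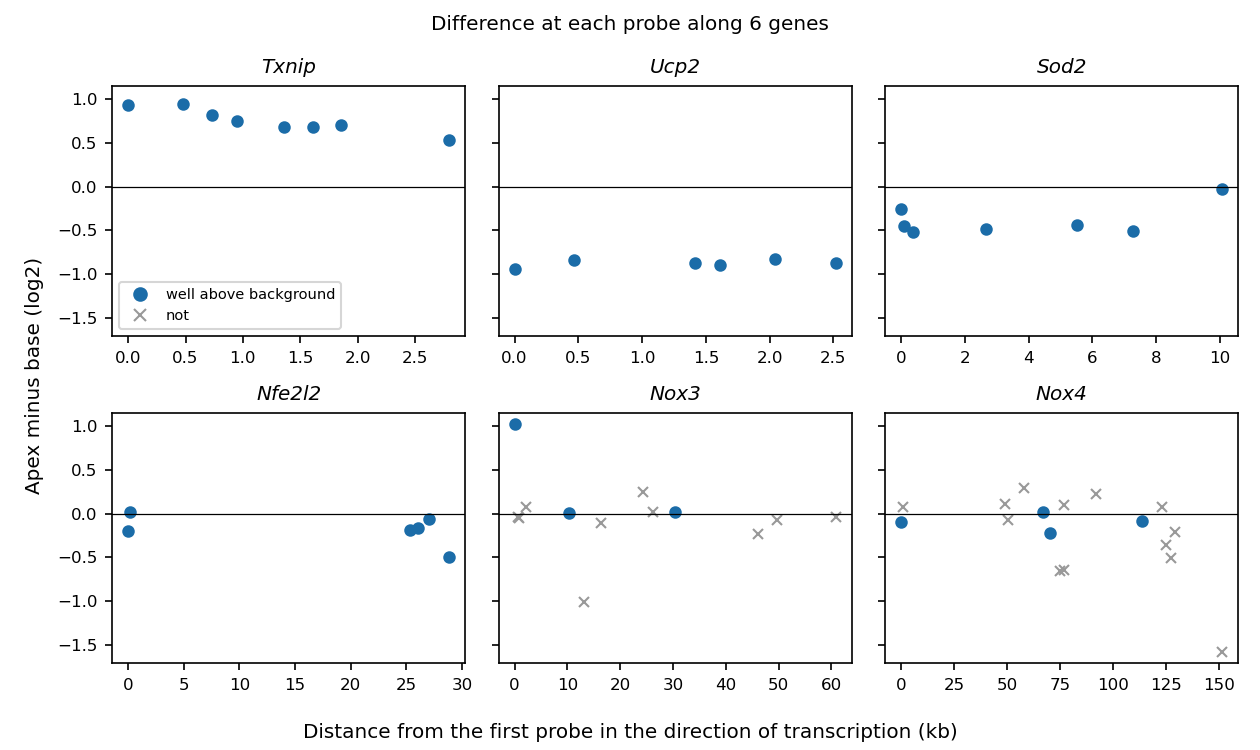
Difference between apex and base (log2, vertical axes) at each probe of 6 genes against its distance from the first probe in the direction of transcription (kb, horizontal axes); filled points are probes that were well above background on every array of some turn, and crosses are the others. All Txnip probes lie above 0 and all Ucp2 probes below, the last Sod2 probe lies near 0, and crosses scatter in Nox3 and Nox4.

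Nrf2 binds the antioxidant response element, whose core is TGACNNNGC. The core was sought on both strands in the window from 250 bases before to 50 bases after each start site in the RefSeq table of GRCm38.p6, which held a window for 35 of the 42 genes. It was found in 7 of these 35 genes (20%), Sod1, Prdx1, Txnrd1, Gclm, Srxn1, Nfe2l2 and Ucp2, beside 14.0% of all 27025 genes of the table. It lay in 4 of the 17 genes with a window that were greater in the base and in 3 of the 18 others. The promoters of Prdx1 and Ucp2 are shown because both genes were greater in the base than in both other turns and both held the core. Each run gives the 250 bases before the start site on the plus strand, with the core, which reads in reverse here, in capitals.
Prdx1, chr4:116685349-116685598: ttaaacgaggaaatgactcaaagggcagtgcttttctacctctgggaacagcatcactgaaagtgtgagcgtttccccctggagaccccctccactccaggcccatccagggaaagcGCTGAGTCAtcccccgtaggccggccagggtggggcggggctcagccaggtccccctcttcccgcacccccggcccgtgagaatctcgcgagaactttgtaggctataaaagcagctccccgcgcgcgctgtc
Ucp2, chr7:100493108-100493357: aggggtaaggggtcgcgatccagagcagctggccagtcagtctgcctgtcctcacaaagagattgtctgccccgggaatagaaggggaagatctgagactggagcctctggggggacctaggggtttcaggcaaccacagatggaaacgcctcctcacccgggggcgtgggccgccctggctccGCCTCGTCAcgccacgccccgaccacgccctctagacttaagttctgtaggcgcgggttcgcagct
The core began 133 bases before the start site in Prdx1 and 66 bases before it in Ucp2 (positions -133 and -66). A match is a sequence and not a measured binding site. Cores outside these windows and looser forms of the core were not sought, so a gene without a match may still hold such an element.

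Of a further list of 78 redox genes, 76 were on the array, and 37 (48.7%) passed the test between apex and base, 30 of them greater in the base and 7 in the apex, with a median of -0.15 log2 units. Over all genes, 39.2% passed, 21.6% greater in the base and 17.6% in the apex. Of the list, 26 genes belonged to the brightest 10%, and 17 of these (65.4%) were greater in the base, beside 59.1% of all genes of that brightness. Metallothionein and copper genes had 3 of 6 greater in the base and none in the apex. Genes that supply NADPH had 3 of 8, other NADPH oxidase subunits 3 of 10, partners and other targets of Nrf2 6 of 16 with 1 in the apex, and other thiol and selenium genes 6 of 16 with 1 in the apex. The other glutathione transferases were mixed, with 9 of 20 greater in the base and 5 in the apex. Sepx1, which reduces the methionine form that Msra does not, was the only gene of this list past 2-fold, with a signal of 698 ± 81.4 (SD, n = 4) for the apex, 876 ± 86.7 for the middle turn and 1471 ± 156 for the base (2.11-fold, adjusted p = 1.96e-05).

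Markers of cell types also moved between the turns. Greater in the base were 6 of 6 fibrocyte markers, 5 of 6 of strial marginal cells, 6 of 7 of melanocytes or intermediate cells, 6 of 9 of macrophages and 4 of 7 of endothelium, with 1 endothelial marker greater in the apex. The summed signal of the fibrocyte markers lay at 266291 to 289820 for the apex, 358410 to 407201 for the middle turn and 524420 to 588328 for the base. That of the strial marginal cell markers ran from 17623 to 19302 in the apex and from 24829 to 28377 in the base. Greater in the apex were 8 of 9 hair cell markers, 6 of 8 neuron markers with 1 in the base, and 7 of 7 Schwann cell markers. The summed signal of the hair cell markers lay at 15892 to 20280 for the apex, 12281 to 14231 for the middle turn and 4936 to 7416 for the base. Most of this sum came from 1 gene, Ocm, with means of 13958, 9641 and 3775 in that order. A summed signal is led by the brightest markers of its list. Of 7 supporting cell markers, 4 were greater in the apex (Sox2, Fgfr3, Prox1 and Otog) and 2 in the base (Gjb2 and Gjb6). The other, Tecta, did not pass the test and had 9 of 23 probes well above background. Red blood cell markers had none of 6 past the test and spread widely, from 21576 to 60623 in the apex and from 28736 to 75802 in the base. Of bone and cartilage markers 3 of 9 were greater in the base and 1 in the apex, and of skeletal muscle markers 2 of 6 in the base. No marker was below background on all its probes. The part of these cell types in the differences of the redox genes was not tested.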

How the data were processed

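RNA (25 ng per array) of 4 samples for each of the 3 turns was labeled with Cy3 and hybridized to exon arrays. The intensity of each spot was deposited by the authors as made with Agilent Feature Extraction 10.7.3.1, with the background of the array subtracted and no normalization between arrays, and the series-wide values repeated these intensities. The quality flags of each spot, given as other values, were deposited by the authors in the same files. Probe positions refer to mm9.

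In R 4.3.3 with data.table (version 1.17.8), 7914 of 180880 spots were left out as controls, and 119 probes were lost to spots flagged on any array. Arrays were brought to a common 75th percentile, which before scaling lay at 534 to 722. Repeated spots of a probe and then the log2 values of a gene's probes were averaged, which gave 19505 genes. The software marked 77.4% to 81.4% of spots as well above background, and the number of arrays limits the precision. Turns were compared by moderated contrasts in limma 3.58.1 (functions lmFit and eBayes) fitted to the 12 arrays together. The script was tested on simulated data. Genes with an adjusted p under 0.05 and 1.3-fold or more in at least 1 comparison were given on every array. The genes, lists and this rule were chosen with earlier results of these data known. Alternatives covered the scaling, background correction, pseudocount (16), probe filter, probe summary, variance model, block and single arrays. No array was found to be deposited more than once.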

Additional observations from a re-analysis of the deposited data

Results flagged for a closer look

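In 7 of 126 groups of 4 arrays, 1 array stood apart from the other 3 by Dixon's criterion, which chance passes in about 1 of 20 groups. In the apex, replicate 4 was the highest array for Sod3, at 2730 against 1950 to 2050, for Glrx2, at 3070 against 2920 to 2940, and for Hmox2, at 1860 against 1660 to 1690. Also in the apex, replicate 1 was the lowest for Cyba, at 2380 against 2740 to 2800. In the middle turn, replicate 2 was the lowest for Prdx5, at 11400 against 13500 to 13900. Msra was highest in replicate 4 of the middle turn, at 300 against 211 to 222, and in replicate 4 of the base, at 393 against 253 to 271. The calls of Sod3, Glrx2 and Msra between apex and base held without the array that stood apart. Hmox2, not called with all arrays, was called greater in the base without apex replicate 4.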

How the results depend on the processing

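Of the 24 genes called between apex and base, 13 held under all 14 alternatives and with each of the 12 arrays left out, all of them greater in the base: Cat, Glrx, Gpx1, Gpx4, Gsta4, Gstp1, Hmox1, Nqo1, Prdx1, Prdx3, Sod3, Txn2 and Ucp2. Spike-in scaling, 1 of these 14, moved genes in general towards the base, so it could hardly remove a call greater in the base. Txnip, greater in the apex, was lost there but held under the other 13 and with each array left out. The series-wide values, also among the 14, equalled those of the main fit. The share of all genes that held in this way was not counted. The number of genes greater in the apex, 2 by the 75th percentile, was 6 by quantile normalization, 8 by cyclic loess, 1 with scaling to the median and 0 with scaling to the spike-in probes, beside 15%, 17.4%, 11.6% and 3.97% of all genes. With spike-in scaling the median difference of all genes was -0.523 log2 units, with scaling to the median -0.153, and 40 of the 42 genes were greater in the base with spike-in scaling, 29 passed for middle and base, 25 for apex and middle and 7 reached 2-fold, beside 73.5%, 37.6%, 40.7% and 8.02% of all genes. With scaling to the median 17 genes passed between apex and middle and 1, Sod3, reached 2-fold, beside 18.2% and 4.65% of all genes. With only the arrays of the turns compared, 5 passed between apex and middle, beside 9.01% of all genes. Among genes past the threshold in either of the fits compared, the apex minus base difference reversed by quantile normalization for Prdx2 (0.19), Sod1 (0.092) and Txn1 (0.22), by cyclic loess for Prdx2 (0.19), Sod1 (0.14) and Txn1 (0.21), and with spike-in scaling for Gpx2 (-0.32), Gpx3 (-0.38) and Gsr (-0.27), which then lay above the median of all genes. Prdx4, Prdx5, Txnrd1 and Keap1 changed sign by quantile normalization and by cyclic loess, and Gstm1 with spike-in scaling (-0.14), without passing in either fit. The cause was not tested. With 1 array left out, 2 to 3 genes were greater in the apex and 19 to 24 in the base, beside 14.6% to 17.8% and 18.6% to 21.6% of all genes. In these fits 7 to 11 passed in the comparison of middle and base and 3 to 11 in that of apex and middle, beside 13.6% to 24.4% and 4.95% to 18.1% of all genes. In each fit 0 to 1 reached 2-fold, beside 3.96% to 5.57% of all genes, and this was Sod3 without apex replicate 4 or base replicate 3.

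Same-numbered arrays of different turns deviated together with r over 0.1 in 6 of 12 pairs, with a mean of 0.0949 beside -0.0313 over 36 other pairs of different turns. When r was averaged by sample number over the arrays of the other turns, 9 of 12 arrays had the highest mean with their own number. With the sample number as a replicate block, 24 genes were greater in the base and 3 in the apex, 20 passed in the comparison of middle and base and 15 in that of apex and middle, beside 23.1%, 18.7%, 25.9% and 17% of all genes.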

Other observations

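Nnt, a mitochondrial enzyme that makes NADPH, is known to lack several internal exons in one substrain of C57BL/6, and the labels name no substrain. Its 18 probes, from chr13:120124335 to chr13:120197878 of mm9, were all well above background on all 4 arrays of each turn, with means from 66.5 to 4811 in the base. The gene did not pass the test between apex and base (-0.10 log2 units, adjusted p = 0.269). The exon of each probe was not looked up here.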
